A study of Mus musculus with 2 samples.

Results

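The Slc22 organic ion transporters described here are 9 genes of the solute carrier family 22, chosen by name from 21938 protein-coding genes of GENCODE M21: Slc22a2, Slc22a3, Slc22a4, Slc22a5, Slc22a6, Slc22a7, Slc22a8, Slc22a12 and Slc22a13. Whole kidney tissue from male B6CASTF1/J mice of 25 days, the first-generation hybrid of C57BL/6J and CAST/EiJ, was assayed by DNase-seq, which maps where the nuclease DNase I cuts accessible DNA. There were 2 libraries of this 1 group, called replicate 1 and replicate 2 by the biological replicate numbers of the labels. No condition was compared, so the values of the 2 libraries describe the genes and their spread, and no test was possible.

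A DNase I peak marks a stretch of open chromatin. A footprint is a short stretch that is cut less than its surroundings, as happens where a protein covers the DNA. Footprints were counted whether or not they lay in a listed peak. The Slc22 proteins carry organic cations, zwitterions and anions, among them drugs, toxins, carnitine and urate, across the cell membrane. In the kidney they are best known from the proximal tubule, where organic cation and organic anion transporters of the basolateral membrane take up solutes from the blood for secretion, and transporters of the apical brush border recover others from the urine.

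A peak within 500 bp of an annotated transcription start (a promoter peak) was found in both libraries for 7 of the 9 genes, and the same 7 genes were found in each library alone. Slc22a8 and Slc22a13 had none. Of all protein-coding genes 65.3% had a promoter peak in both libraries, so the 7 of 9 is near the background. At least 1 footprint lay in the promoter window of the same 7 genes in both libraries, against 62.8% of all protein-coding genes. What set the genes apart from each other was the height of the peak: it ran from 0.566 for Slc22a3 to 33.2 for Slc22a5 in replicate 2. Height is the deposited signal of a peak, scaled within each library.

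The sequences in front of some of the transcription starts are printed here. Those of Slc22a2, Slc22a3, Slc22a7 and Slc22a13 are not. The first pair are the carnitine and ergothioneine transporters, which had the highest promoter peaks. They are the 250 bases before the curated RefSeq start of Slc22a5 (chr11:53891704-53891953) and Slc22a4 (chr11:54028105-54028354), both read on the minus strand of mm10 (RefSeq promoter table, GRCm38.p6). Capitals mark the bases that lay in a footprint of both libraries, 112 of 250 for Slc22a5 and 48 of 250 for Slc22a4.
Slc22a5: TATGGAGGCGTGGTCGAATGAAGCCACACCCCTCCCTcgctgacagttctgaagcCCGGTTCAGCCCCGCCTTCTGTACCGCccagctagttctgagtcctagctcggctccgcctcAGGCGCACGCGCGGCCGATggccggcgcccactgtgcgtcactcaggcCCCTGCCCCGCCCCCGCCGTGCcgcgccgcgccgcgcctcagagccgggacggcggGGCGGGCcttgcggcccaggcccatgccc
Slc22a4: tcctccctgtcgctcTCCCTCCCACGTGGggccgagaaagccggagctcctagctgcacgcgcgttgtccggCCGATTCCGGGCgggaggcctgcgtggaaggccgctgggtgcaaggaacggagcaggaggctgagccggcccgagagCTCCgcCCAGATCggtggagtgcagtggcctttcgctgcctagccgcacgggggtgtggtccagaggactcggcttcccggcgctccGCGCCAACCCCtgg
The next pair are the organic anion transporters Slc22a6 (chr19:8617746-8617995, plus strand) and Slc22a8 (chr19:8592932-8593181, plus strand), in front of the RefSeq starts at 8617996 and 8593182. In this pair 0 and 2 of the 250 bases lay in a footprint of both libraries, and the capitals mark letters searched for instead, GTTAAT in both genes and TATATAA with its overlapping reverse complement in Slc22a8.
Slc22a6: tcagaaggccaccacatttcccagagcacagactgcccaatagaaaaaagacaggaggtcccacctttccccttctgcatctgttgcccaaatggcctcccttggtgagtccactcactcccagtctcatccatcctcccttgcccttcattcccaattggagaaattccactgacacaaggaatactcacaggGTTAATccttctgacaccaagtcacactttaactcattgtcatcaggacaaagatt
Slc22a8: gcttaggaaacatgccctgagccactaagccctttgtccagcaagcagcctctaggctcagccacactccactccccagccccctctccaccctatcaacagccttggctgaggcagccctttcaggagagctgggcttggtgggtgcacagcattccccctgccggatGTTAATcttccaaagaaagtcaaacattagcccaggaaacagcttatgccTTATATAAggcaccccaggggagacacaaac
The urate transporter Slc22a12 (chr19:6543071-6543320, minus strand) had 14 of 250 bases in a footprint of both libraries, shown in capitals, and these 14 bases include a GC box, GGGCGG.
Slc22a12: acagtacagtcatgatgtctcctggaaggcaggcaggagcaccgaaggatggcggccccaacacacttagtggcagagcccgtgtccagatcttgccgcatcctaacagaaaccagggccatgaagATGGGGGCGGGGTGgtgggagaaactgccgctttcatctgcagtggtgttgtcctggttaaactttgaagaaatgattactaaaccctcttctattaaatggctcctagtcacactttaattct
The printed letters are those of the C57BL/6J reference. The CAST/EiJ copy of each site was not read, and how the authors' alignment treated it is not given in the labels or file descriptions.

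On mm10, chromosome 11 holds Slc22a4 (53983123 to 54028090, minus strand) and Slc22a5 (53864542 to 53891660, minus). Chromosome 17 holds Slc22a2 (12584132 to 12628488, plus), Slc22a3 (12418960 to 12507704, minus) and Slc22a7 (46432183 to 46438457, minus). Chromosome 19 holds Slc22a6 (8618039 to 8628299, plus), Slc22a8 (8591254 to 8611835, plus) and Slc22a12 (6535845 to 6543032, minus), and chromosome 9 holds Slc22a13 (119192974 to 119209098, minus).

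The marker genes of the tissue were read first. Promoter peaks stood in both libraries at 8 of 8 proximal tubule markers, 4 of 4 markers of the loop of Henle, 2 of 3 collecting duct, 2 of 3 podocyte and 3 of 3 endothelial markers. The share over all protein-coding genes was 65.3%. None of 5 hepatocyte, 3 muscle, 3 neuronal and 3 immune markers had one in both libraries, and Ttr alone among them had one in replicate 2, of height 0.283. Replicate 2 listed more of everything, with 177001 peaks against 125393 and 493495 footprints against 237471. Footprint counts of the genes have to be read beside this ratio of 2.08. The kidney holds many cell types, so for every gene a low peak in many cells and a high peak in few cells cannot be told apart.

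The organic cation transporters Slc22a2 and Slc22a3 had low promoter peaks. Slc22a2 encodes OCT2, the basolateral uptake transporter for organic cations, and its promoter peak over the first exon (chr17:12584041-12584340) had heights of 1.25 in replicate 1 and 1.28 in replicate 2. These placed it at the 14.3rd and 17.3rd percentile of genes with a promoter peak, whose median heights were 7.36 and 6.63. Slc22a3 encodes OCT3, a transporter of monoamines and other cations found in many tissues. Its promoter peak was the lowest of the 7, at 0.769 and 0.566, the 8.72nd and 8.24th percentile. That peak lay inside the gene and not across the start: it began 264 bp from the start in replicate 1 and 164 bp in replicate 2. With a promoter window of 250 bp the gene lost its promoter peak in replicate 1, and with only the upper 50% of peaks by height it lost it in both libraries. Either way 6 of the 9 genes kept one in both libraries, beside 63.7% of all protein-coding genes with the narrow window and 58.9% with the higher peaks.

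Slc22a2 and Slc22a3 lie 76.4 kb apart on chromosome 17 and are transcribed away from each other. Promoter peaks of Slc22a2 were the higher in both libraries, by 0.70 and 1.18 on the log2 scale (mean 0.94, SD 0.34, n = 2). Peak density, the number of peaks per kb of gene body plus 10 kb on each side (the locus), did not keep an order. Slc22a2 had 0.0622 peaks per kb in replicate 1 and 0.140 in replicate 2, and Slc22a3 had 0.0736 and 0.120. The difference, Slc22a2 minus Slc22a3, was -0.0114 in replicate 1 and 0.0203 in replicate 2, so its sign changed between the libraries and the mean of 0.00444 was smaller than its SD of 0.0224. Without peaks within 1 kb of any start the mean was -0.00967.

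The peaks of the Slc22a2 locus were few and low. Its second highest shared site was 1.46 kb inside the gene (chr17:12585521-12585660), at 1.16 and 1.31, close to the promoter peak itself, and the next (chr17:12632101-12632280) lay 48.1 kb from the start, past the 3′ end, at 0.641 and 0.835. At Slc22a3 the promoter was far from the highest site. The highest shared site of the locus was 91.3 kb from the 5′ end, past the 3′ end of the gene and inside the body of Plg, the plasminogen gene (chr17:12416361-12416500). It reached 3.98 in replicate 1 and 6.12 in replicate 2, over 5 times the promoter in the first and over 10 times in the second. A pair of introns held the others, at 1.21 and 1.90 (52.3 kb from the start) and at 0.658 and 0.984 (62.9 kb).

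The Plg-side site is printed because a match to the CTCF consensus, the motif of an architectural protein, lies whole inside a footprint of both libraries (bases 12416409 to 12416420, plus strand). The highest shared site near Slc22a13 has the same property, with a match on the minus strand at 119192404 to 119192415, inside a window of chr9:119192321-119192500. Both are the bases common to the peaks of both libraries on the plus strand, with bases in a footprint of both libraries in capitals.
Slc22a3 locus, 3′ side: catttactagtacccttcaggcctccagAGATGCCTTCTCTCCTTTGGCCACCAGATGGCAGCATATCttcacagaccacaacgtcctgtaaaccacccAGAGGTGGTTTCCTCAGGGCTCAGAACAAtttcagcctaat
Slc22a13 locus, 3′ side: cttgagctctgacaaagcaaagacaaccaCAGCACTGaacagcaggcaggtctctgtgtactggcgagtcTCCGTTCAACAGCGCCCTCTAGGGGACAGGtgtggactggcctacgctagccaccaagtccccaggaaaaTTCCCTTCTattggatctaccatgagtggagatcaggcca
Among all peaks 6.67% in replicate 1 and 5.30% in replicate 2 held such a match in 150 bp at their midpoint. Of the peaks of the 9 loci 4 of 66 (6.06%) and 5 of 85 (5.88%) held it, shares near those of all peaks. The consensus was chosen after seeing these sites, and binding of CTCF was not measured.

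**Figure D1:**
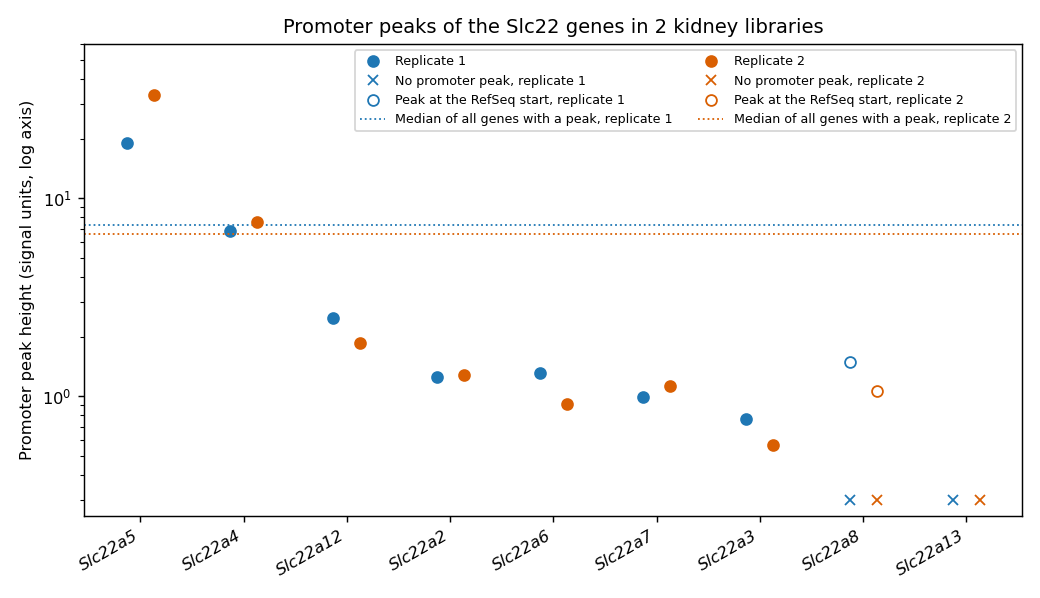
Height of the highest promoter peak (signal units, log axis) of each gene in replicate 1 (blue) and replicate 2 (orange), with crosses for genes without a promoter peak, open circles for the peak at the RefSeq start of Slc22a8 and dotted lines for the medians of all genes with a promoter peak. Slc22a5 lies above both lines, Slc22a4 lies at them, and the other 5 genes with a promoter peak lie at 2.47 or below.

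The carnitine branch stood at the other end. Slc22a5 encodes OCTN2, the sodium-coupled carnitine transporter that recovers carnitine from the filtrate, and its promoter peak reached 19.1 in replicate 1 and 33.2 in replicate 2. It was at the 92.2nd and 99.4th percentile of genes with a promoter peak. All 1001 bases of its promoter window were listed with a false discovery rate below 0.05 in both libraries. Slc22a4 encodes OCTN1, which carries ergothioneine, and its promoter peak had heights of 6.83 and 7.54, the 47.3rd and 54.6th percentile. Slc22a4 was thus near the middle of all genes with a promoter peak, and 600 and 606 of its 1001 promoter bases were listed.

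Slc22a5 exceeded Slc22a4 by a factor of 2.80 in replicate 1 and 4.41 in replicate 2. On the log2 scale Slc22a4 minus Slc22a5 was -1.48 and -2.14 (mean -1.81, SD 0.46, n = 2), with the same sign in both libraries. Both promoters were rich in CpG: the observed to expected ratio within 500 bp of the 5′ end was 0.769 for Slc22a5 and 0.720 for Slc22a4, in the fourth of 5 equal groups of genes, where 94.4% had a promoter peak in both libraries. GC boxes (GGGCGG, either strand) occurred in 35.7% of the 32851 RefSeq promoters. Slc22a5 had 5, of which the 3 upstream of the start overlapped a footprint of both libraries, at -172, -78 and -30 from the RefSeq start (first base of the match). Slc22a4 had 2, at -170 and -99, and both overlapped a footprint of both libraries.

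Away from the promoters, and within 10 kb of the genes, Slc22a4 had the higher sites. At Slc22a5 the next shared sites by mean height were 7.56 kb upstream (chr11:53899121-53899320, heights 1.03 and 2.29) and 32.4 kb from the start at the transcription start of the gene model Gm12216 (1.79 and 1.25). By the mean of both libraries these were the highest after the promoter, and a site 1.57 kb upstream was close, at 1.58 and 1.46. At Slc22a4 several distal sites approached the promoter: an intron 23.7 kb from the start (chr11:54004301-54004480) had heights of 4.63 and 7.36, and a site 0.75 kb upstream (chr11:54028761-54028920) had 4.10 and 7.01. Beyond that limit the order was different: 12.7 kb upstream of Slc22a5 (chr11:53904281-53904480) a peak had heights of 5.67 and 8.05, above every site of the Slc22a4 locus other than its promoter in replicate 1 and above all of them in replicate 2. In the body of Slc22a4 lay 4 further shared sites, 20.97 to 25.8 kb from its start. Their heights were 1.07 to 4.43 in replicate 1 and 1.19 to 5.22 in replicate 2. Slc22a4 had the highest median peak height of the 9 loci, 4.10 in replicate 1 and 3.10 in replicate 2.

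Slc22a4 and Slc22a5 are 91.5 kb apart on chromosome 11 and share their direction. Between them lies Slc22a21, a further carnitine transporter gene of the family in mouse, 2.79 kb from Slc22a4 and 58.3 kb from Slc22a5. Its promoter peak of 4.86 and 3.37 falls in the Slc22a4 locus. Peak density was 0.139 and 0.169 per kb for Slc22a4 and 0.191 and 0.212 for Slc22a5. In the gene bodies alone it was 0.133 and 0.178 for Slc22a4 and 0.111 and 0.184 for Slc22a5. Without flanks the order thus differed between the libraries.

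**Figure D2:**
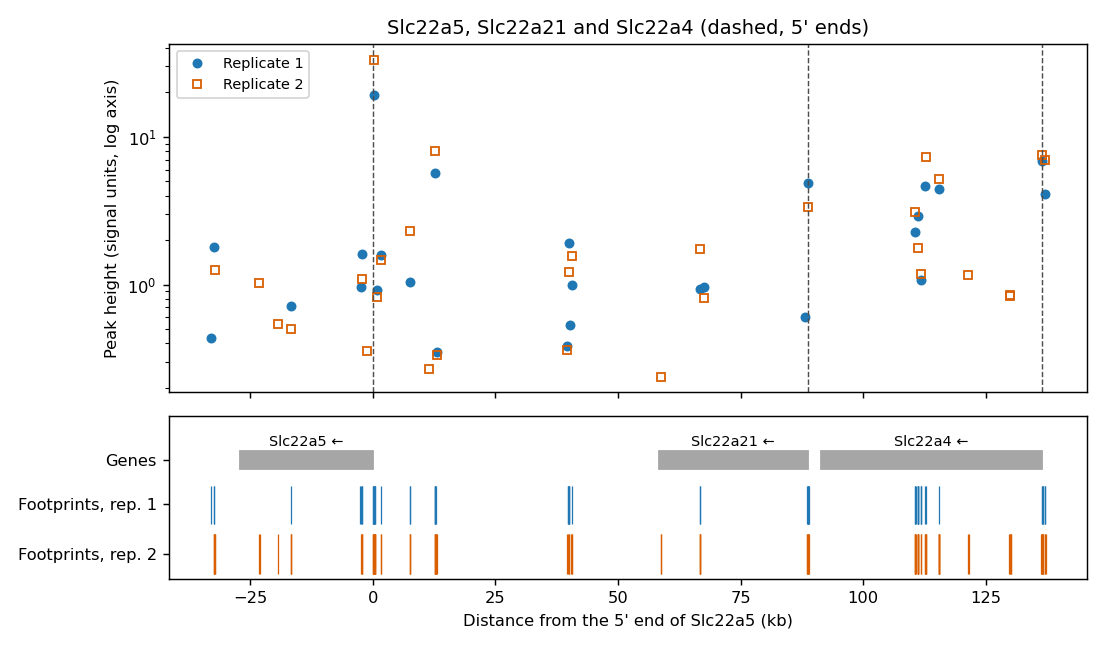
Peaks (height in signal units, log axis) and footprints over Slc22a5, Slc22a21 and Slc22a4, by distance from the 5′ end of Slc22a5, with filled circles for replicate 1, open squares for replicate 2 and dashed lines at the 5′ ends. The highest points, 19.1 and 33.2, stand at the Slc22a5 start, a peak of 5.67 and 8.05 stands 12.7 kb upstream of it, and peaks up to 7.36 stand in the body of Slc22a4.

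The organic anion transporters had low promoters, and 1 of them had none at the GENCODE starts. Slc22a6 encodes OAT1, the basolateral exchanger that takes up para-aminohippurate and many drugs. Its highest promoter peak was 1.32 in replicate 1 and 0.914 in replicate 2, the 15.0th and 13.3rd percentile, over the first exon (chr19:8617981-8618260 in replicate 1). Slc22a7 encodes OAT2, and its highest promoter peak was 0.991 and 1.12, the 11.8th and 15.7th percentile. These were not the same peak: in replicate 1 the higher one was at the 5′ end (chr17:46438461-46438860), where replicate 2 had 0.869. Replicate 2 had its higher one at an inner start (chr17:46437101-46437280).

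Slc22a8 encodes OAT3, the other basolateral organic anion exchanger of the proximal tubule. No peak and no footprint of either library touched its promoter window. Of 1036 bases within 500 bp of its GENCODE basic starts, 0 were listed with a false discovery rate below 0.05 in either library. The nearest peak was 1652 bp inside the gene, in an intron, with identical ends in both libraries (chr19:8592941-8593280). It had heights of 1.50 and 1.06 and held 2 footprints in replicate 1 and 7 in replicate 2.

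This peak covers position 8593182, the start of a curated RefSeq transcript of Slc22a8 that is in neither the basic nor the comprehensive GENCODE M21 set. RefSeq also has a curated start at 8591254, the GENCODE 5′ end, where nothing was listed. Within 500 bp of the inner start 420 of 1001 bases in replicate 1 and 425 in replicate 2 were listed. With RefSeq starts added for every gene, a choice made after seeing the data, 8 of the 9 genes had a promoter peak in both libraries and 8 had a promoter footprint in both, beside 66.9% and 64.4% of all protein-coding genes. The height at this start was 1.14 times that of the Slc22a6 promoter in replicate 1 and 1.16 times in replicate 2 (Slc22a6 minus Slc22a8 on the log2 scale -0.20, SD 0.02, n = 2). Whether this start is the one used in the kidney was not measured.

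The letters in front of that start are those printed above. GTTAAT, which opens the longer HNF1 motif GTTAATNAT, begins 81 bases before the Slc22a8 start and 56 bases before the Slc22a6 start, and occurs in 7.10% of RefSeq promoters on either strand. TATATAA begins 30 bases before the Slc22a8 start and occurs in 3.24%. In replicate 2 the TATATAA letters lay whole inside a footprint, and in replicate 1 no footprint touched them. GTTAAT overlapped no footprint of either library at Slc22a8. Both of these short motifs were added after seeing the sequences. The longer motifs GTTAATNAT (HNF1, 0.801% of promoters), CAAAGTCCA (HNF4, 0.475%), TCAAGGTCA (ESRRA, 0.423%), GGTCAAAGG (a direct repeat, 0.344%) and TGANTCA (AP-1, 7.81%) were in none of the 8 promoters that the table holds. Slc22a7 is not among these 8.

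**Figure D3:**
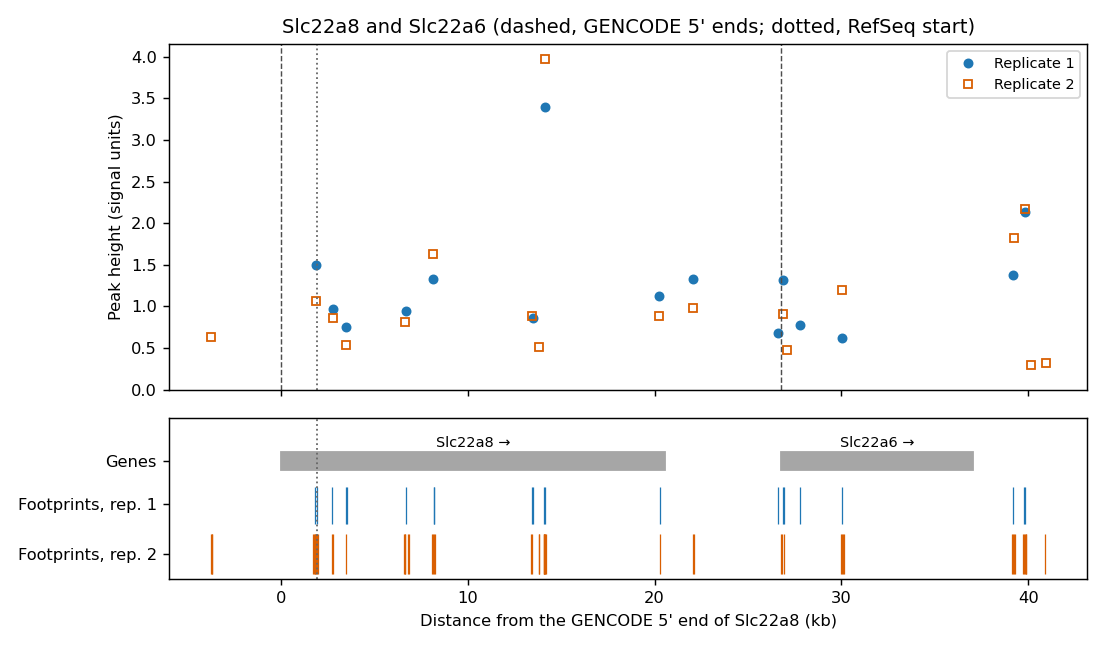
Peaks (height in signal units) and footprints over Slc22a8 and Slc22a6, by distance from the GENCODE 5′ end of Slc22a8, with filled circles for replicate 1, open squares for replicate 2, dashed lines at the GENCODE 5′ ends and a dotted line at the inner RefSeq start. No point stands at the GENCODE start of Slc22a8, peaks of 1.50 and 1.06 stand at the RefSeq start, and the highest peak of 3.39 and 3.97 lies 14.1 kb inside the gene.

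Slc22a8 and Slc22a6 lie head to tail, 6.20 kb apart on chromosome 19. Despite its empty promoter window, Slc22a8 had the highest peak density of the 9 loci in the mean of both libraries: 13 peaks in replicate 1 and 14 in replicate 2, or 0.320 and 0.345 per kb, the 94.2nd percentile of all protein-coding genes. Slc22a6 had 8 and 9 peaks, or 0.264 and 0.297 per kb, the 90.2nd percentile. The loci overlap, and 6 peaks of replicate 1 and 5 of replicate 2 were counted for both, those at the Slc22a6 start among them. The first rank of Slc22a8 depends on these peaks. Without them its density would lie below that of Slc22a12, which had 0.257 and 0.368 peaks per kb and was the higher in replicate 2 as counted. Slc22a6 minus Slc22a8 was -0.0560 and -0.0476 peaks per kb (mean -0.0518, SD 0.00594, n = 2). In the gene bodies alone the difference was -0.121, and with 50 kb on each side it turned to 0.0206. With the stricter peak list the mean was -0.0154 and the order differed between the libraries. That list had 5 peaks for Slc22a6 and 6 for Slc22a8 in replicate 1, over loci of 30.3 and 40.6 kb. In replicate 2 it had 6 and 10. With this list Slc22a6 was thus the denser locus in replicate 1 and Slc22a8 in replicate 2.

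The highest shared site of the Slc22a8 locus lay across an intron and exon border 14.1 kb from the GENCODE start. It reached 3.39 and 3.97, against 1.50 and 1.06 at the inner RefSeq start. It is printed as the highest site of either organic anion locus on this part of chromosome 19 (chr19:8605321-8605460, plus strand), with bases in a footprint of both libraries in capitals, and its last 67 of 140 bases belong to the exon that starts at 8605394.
Slc22a8, intron and exon: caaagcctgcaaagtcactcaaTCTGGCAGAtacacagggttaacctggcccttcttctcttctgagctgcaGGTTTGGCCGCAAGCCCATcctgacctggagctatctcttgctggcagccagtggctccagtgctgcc
An intron site 8.16 kb from the start had heights of 1.33 and 1.63. At Slc22a6 the higher sites lay past the 3′ end: 13.0 kb from the start (chr19:8630981-8631140) at 2.14 and 2.17, nearly equal in the libraries, and 12.4 kb from the start at 1.38 and 1.82. The latter held the HNF4 letters CAAAGTCCA and the AP-1 letters TGANTCA, on the minus strand and overlapping each other by 2 bases, whole inside a footprint of replicate 2 and outside those of replicate 1. Between the genes, 4.74 kb upstream of Slc22a6, a site had 1.33 and 0.979, close to the promoter.

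At Slc22a7, on chromosome 17, the highest shared site was again inside the gene, 4.63 kb from the 5′ end (chr17:46433741-46433920), at 1.74 and 1.41. The next, at 1.53 kb, had 1.45 and 1.35. The first is printed for its repeated letters. On the plus strand it holds 3 GC boxes whose starts are 33 bases apart, at 46433752, 46433785 and 46433818, and shifting the sequence by 33 bases against itself gives a longest equal run of 55 bases. The second and the third GC box lay whole inside a footprint of both libraries and the first lay outside (capitals, bases in a footprint of both). The 3 GC boxes lie in an intron, and the last 72 of the 180 printed bases lie in the exon at 46433849 to 46434063.
Slc22a7, intron and exon: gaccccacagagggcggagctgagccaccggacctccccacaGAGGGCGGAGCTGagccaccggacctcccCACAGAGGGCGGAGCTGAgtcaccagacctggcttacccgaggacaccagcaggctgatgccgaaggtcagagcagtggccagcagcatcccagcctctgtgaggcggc
How the authors placed reads on such a repeat is not given in their file descriptions, and its part in the footprints was not tested.

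The urate transporters completed the set. Slc22a12 encodes the mouse counterpart of URAT1, the apical exchanger that recovers urate, and its promoter peak (chr19:6543101-6543280, the same ends in both libraries) had heights of 2.47 and 1.86, the 23.5th and 22.1st percentile. Only Slc22a5 and Slc22a4 of the 9 were higher, in both libraries. Its GC box, 120 bases before the RefSeq start, was the one in the capitals printed above. Upstream stood 3 sites that were all higher than the promoter in both libraries. The nearest, 3.26 kb upstream (chr19:6546181-6546400), had 4.18 and 6.50. The second, 5.58 kb upstream, had 4.91 and 4.54, and the farthest, 9.44 kb upstream, had 4.44 and 4.76.

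The nearest of these upstream sites is printed on the plus strand because 62 of its 220 bases lay in a footprint of both libraries, and it holds AP-1 letters that lay whole inside a footprint of replicate 2 and in part inside one of replicate 1.
Slc22a12, 3.26 kb upstream: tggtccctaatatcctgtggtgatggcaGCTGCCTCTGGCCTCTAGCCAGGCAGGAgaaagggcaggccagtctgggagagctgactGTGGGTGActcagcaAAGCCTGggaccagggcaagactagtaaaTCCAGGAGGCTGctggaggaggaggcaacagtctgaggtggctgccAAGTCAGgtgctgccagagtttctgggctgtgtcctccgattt
By contrast the body of Slc22a12 held 0 peaks in replicate 1 and 1 in replicate 2. The locus had 0.257 and 0.368 peaks per kb (92.8th percentile) and the highest footprint density of the 9, 0.699 and 1.32 per kb (92.9th percentile). A further 3 shared sites, 9.07 to 11.9 kb from the start on the 3′ side, lay inside Nrxn2. Nrxn2 is a neuronal adhesion gene whose model overlaps the locus. The middle one of these 3 sites lay within 500 bp of a start of the gene model Gm14964. The promoter peak of Slc22a12 also lay inside the Nrxn2 model in both libraries, as did the body peak of replicate 2. The 3 higher sites upstream lay outside it.

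Slc22a13 encodes OAT10, a transporter of urate and nicotinate, and its promoter window was empty: 0 of 1001 bases were listed in either library. The nearest peak was 1558 bp away in replicate 1 and 1618 bp in replicate 2, inside the gene, with heights of 1.09 and 1.71, and no RefSeq start fell within it. With a promoter window of 2000 bp this peak and that of Slc22a8 were included and all 9 genes had a promoter peak in both libraries, beside 69.5% of all protein-coding genes at that window. The highest shared sites of the locus were the site with the CTCF match printed above, at 3.98 and 3.78, and a site 16.3 kb from the start at 2.56 and 4.27. Both lay just past the 3′ end of Slc22a13. They lay inside the model of Slc22a14, a family member whose annotation encloses Slc22a13 on the same strand, 1.99 and 2.39 kb from a start of Slc22a14.

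The 2 genes with an empty window and 4 of the others had few CpG at the 5′ end. The observed to expected ratio was 0.149 for Slc22a7, in the lowest of 5 equal groups of genes, and 0.200 for Slc22a12, 0.211 for Slc22a13, 0.222 for Slc22a6, 0.232 for Slc22a8 and 0.299 for Slc22a2, in the second group. In the lowest group 14.0% of genes had a promoter peak in both libraries and in the second group 39.9%. Of these 6 genes 4 had one. Slc22a3, at 0.632, was in the middle group, where 81.3% of genes had one, and its peak was the lowest of all 7.

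**Figure D4:**
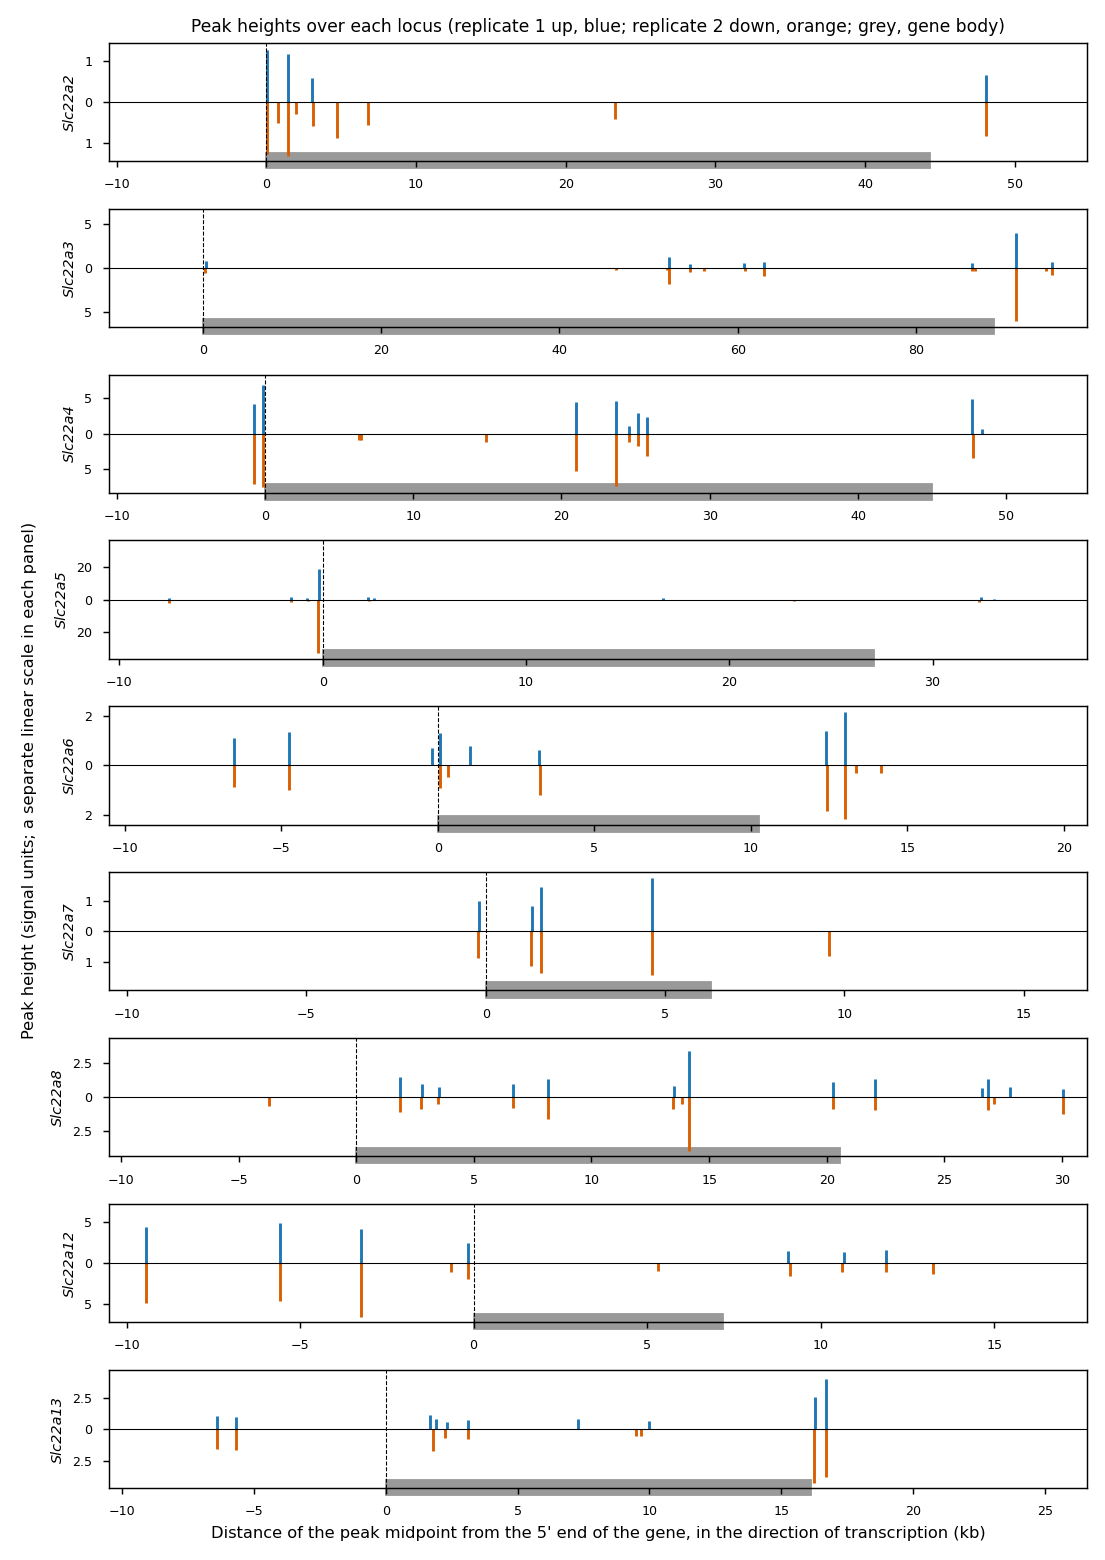
Heights of all peaks (signal units, a separate linear scale in each panel) over the 9 loci, by distance of the midpoint from the 5′ end in the direction of transcription, with replicate 1 upward, replicate 2 downward and the gene body in grey. The highest shared site is the promoter at Slc22a2, Slc22a4 and Slc22a5, lies past the 3′ end at Slc22a3, Slc22a6 and Slc22a13, inside the gene at Slc22a7 and Slc22a8, and upstream at Slc22a12.

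Over the 9 loci the promoter was thus the highest shared site in 3, by the mean height of both libraries. The median locus density was 0.202 peaks per kb (0.191 in replicate 1 and 0.212 in replicate 2), beside 0.102 over all protein-coding genes. For footprints it was 0.531 per kb (0.388 and 0.661), beside 0.270. The densities of single loci ran from the 48.3rd percentile for Slc22a3 and the 49.8th for Slc22a2, through 67.8 for Slc22a4, 72.5 for Slc22a7, 79.0 for Slc22a5 and 88.3 for Slc22a13, to the 94.2nd for Slc22a8. Short genes have a larger share of flank in their locus. Without flanks the median of the 9 was 0.156, and without peaks within 1 kb of any start it was 0.127. Neither can be set beside the 0.102 of all genes, which counts flanks and peaks near starts.

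**Figure D5:**
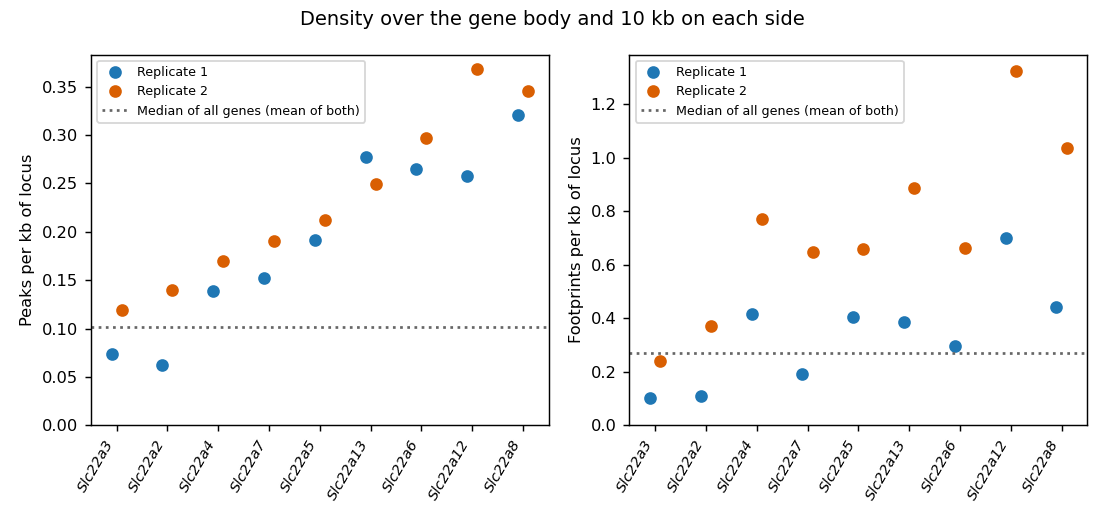
Peaks per kb (left) and footprints per kb (right) of each locus in replicate 1 (blue) and replicate 2 (orange), with the median of all protein-coding genes (mean of both libraries, 0.102 and 0.270) as a dotted line. Slc22a3 and Slc22a2 lie on both sides of the line for peaks, and the other 7 genes lie above the line for peaks in both libraries.

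Most of the sites were seen in both libraries. Counting each peak once, 60 of 66 replicate 1 peaks in the 9 loci overlapped a replicate 2 peak by at least 1 bp (90.9%, exact binomial 95% interval 81.3 to 96.6, counting error only), beside 87.6% of all replicate 1 peaks. In the other direction 58 of 85 did (68.2%, 57.2 to 77.9), beside 62.2% of all replicate 2 peaks. Peaks without a partner had the lower median height, 0.718 in replicate 1 and 0.537 in replicate 2, against 1.28 and 1.29 for those with one. The highest without a partner reached 0.957 in replicate 1 and 1.29 in replicate 2. At the 60 shared sites the log2 ratio of replicate 2 to replicate 1 had a median of 0.07 and an SD of 0.48, and at 58 it was within 1 of 0. The widest gap of the 60, 1.15, was at the site 7.56 kb upstream of Slc22a5.

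The rest of the family and the partners of organic ion secretion were read from lists. Of 16 other Slc22 genes 7 had a promoter peak in both libraries, 3 in replicate 2 alone and 6 in neither. Among all protein-coding genes the share with one in both libraries was 65.3%. Among the 7 were Slc22a23 (6.14 and 3.28), Slc22a21 (given above), Slc22a15 (3.20 and 3.02), Slc22a18 (3.10 and 2.61), Slc22a17 (2.35 and 2.52) and Slc22a27 (0.291 and 0.194). The 3 in replicate 2 alone were low: Slc22a19 at 0.472, Slc22a14 at 0.407 and Slc22a29 at 0.149. The median locus density of the 16 was 0.0572 peaks per kb.

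Peaks were sparse in the other family cluster of chromosome 19. The region of 752 kb from Slc22a19 to Slc22a30, with 6 genes of the second list, had 10 peaks in replicate 1 and 27 in replicate 2, or 0.0133 and 0.0359 per kb. The region of 57.05 kb around Slc22a8 and Slc22a6 had 15 and 18, or 0.263 and 0.316 per kb. How alike the sequences of the 6 genes are was not measured. Reads shared between close copies may be lost in alignment, and the part of this in the low density was not tested.

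All 16 of the secretion partners, which include apical efflux pumps, scaffold proteins and the HNF transcription factors, had a promoter peak and a promoter footprint in both libraries. The shares over all protein-coding genes were 65.3% and 62.8%. The median observed to expected CpG ratio was 0.497 for the partners, 0.232 for the 9 transporters and 0.254 for the other family genes. The part of CpG content in the list counts was not tested. The 4 highest were taken by mean height over both libraries. They were Slc9a3r1 (18.1 and 22.9), Abcc4 (7.97 and 8.98), Hnf4a (4.16 and 4.26) and Abcg2 (4.66 and 3.55). Slc9a3r1 is a scaffold protein of the brush border and Abcc4 an efflux pump for organic anions. Hnf4a is a transcription factor of the proximal tubule and Abcg2 an apical efflux pump. Slc47a1 was close behind at 4.42 and 3.78, above Hnf4a in replicate 1 and above Abcg2 in replicate 2. The median locus density of the 16 partners was 0.147 peaks per kb in replicate 1 and 0.214 in replicate 2. It was 0.191 and 0.212 for the 9 transporters, so the order was not the same in both libraries.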

How the data were processed

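DNase-seq of whole kidney gave 2 libraries of 1 group. The labels give them separate biosamples and replicate numbers and the same donor code, and they were read as separate animals. The peak heights are the deposited signal of each library's own peak list, on mm10 and not pooled per the file descriptions deposited by the authors. The footprint lists deposited by the authors carry 1 q-value (false discovery rate) of 0.01, a threshold, and the deposited per-base q-values are listed only below 0.05. The labels and file descriptions name no aligner, caller, version or read depth, so depth is unknown.

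The longer of the pair of peak lists was used. Peaks and footprints were counted within 500 bp of GENCODE M21 basic starts and over each gene body with flanks of 10 kb, using Python 3.11.15, pandas 2.3.3, numpy 2.4.6 and scipy 1.17.1. The counting was tested on simulated data, where 200 of 200 genes given a promoter peak among 21938 were found. Every simulated peak was placed inside a promoter window, so this checked the counting alone and not the deposited peak calls. Named were all 9 genes and the 3 highest shared sites of each locus. Also named were other family genes with a promoter peak or next to a gene of the 9. The 4 highest partners by mean height, Slc47a1 close behind them, and genes whose start lay at a shared site of a locus were named as well. The 4 further Slc22a4 sites and the 3 sites in Nrxn2 on the 3′ side of Slc22a12 were singled out after their values were seen. The values of 1 gene of the family list are not reported here. The genes, lists and markers were chosen with earlier results of these data known. The alternatives were a stricter peak list, the upper 50% of peaks, other windows and flanks, other footprint and overlap rules, and each library alone. Starts from RefSeq or the comprehensive GENCODE set, and the motifs added to the design (a short HNF1 form, a TATA-like form and CTCF) were chosen after seeing the data.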

Additional observations from a re-analysis of the deposited data

How the results depend on the processing

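The number of genes with a promoter peak in both libraries (7) was 6 with the upper 50% of peaks or a window of 250 bp, 8 with RefSeq starts added and 9 with a window of 2000 bp. The median peak density (0.202) was 0.138 with the stricter peak list, 0.152 with the upper 50% of peaks, 0.156 without flanks, 0.183 with 50 kb flanks, 0.127 without peaks within 1 kb of a start and 0.171 without peaks shared by a pair of loci. The Slc22a6 minus Slc22a8 density (-0.0518) was -0.0154 with the stricter list, -0.04 with the upper 50% and -0.121 without flanks. It was -0.0686 without peaks near a start and 0.0206 with 50 kb flanks, where its sign turned. With the stricter list the sign in replicate 1 was the opposite of that in replicate 2. The Slc22a2 minus Slc22a3 density (0.00444) ran from -0.0114 to 0.0203 with either library left out, was 0.0338 without flanks and -0.00967 without peaks near a start. The share of replicate 1 peaks overlapping replicate 2 (90.9%) was 97.7% with the upper 50%. The cause of these shifts was not tested. Counting the promoter counts above, 46 alternative values of the main results kept their direction and stayed within a set limit: within 1 SD of the libraries for densities and heights, within the 95% interval for the share, and within 1.5 times for counts. The mean of 2 values lies within 1 SD of each of them by arithmetic. Density and height differences from 1 library could thus change sign but could not leave that limit. The Slc22a4 minus Slc22a5 log2 height was -1.81 in all other settings, which used the same peaks. The number 46 is therefore no measure of robustness. No paired analysis was possible because both libraries belong to 1 group. Read depth is unknown, so an empty promoter window means only that nothing was listed at this depth.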
